A study of Mus musculus with 20 samples.

Results

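The cytosolic ribosomal protein genes encode the proteins of the large and small subunits of the ribosome outside mitochondria. They were taken as the rows annotated protein coding whose symbol is Rpl or Rps followed by a number, with or without a final a or x, together with Rplp0, Rplp1, Rplp2 and Rpsa. The rule found 76 genes of the 26440 in the table, 46 of the large subunit and 30 of the small, and used no measured value. All 76 reached a value of 10 in 3 or more libraries, and so were among the 18125 genes tested. They were read in hearts of C57BL/6N mice with a myocardium-specific knockout of Creld1, labelled MyHC-Creld1 KO, and in wild-type mice of the same strain; the labels name no allele beyond these. Whole hearts were taken from embryos at E13.5, 4 of them knockout and 4 wild-type, of 3 litters. Atria and ventricles were taken at postnatal day 3 (P3) from 3 knockout and 3 wild-type pups of 3 litters, and each pup gave both tissues. The deletion is directed to the myocardium by a driver that the labels call MyHC, so other cells of the heart keep Creld1 by design. RNA was sequenced by SMART-Seq2, a full-length method for small amounts of RNA.

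Ribosomal proteins assemble with ribosomal RNA in equal amounts, so that a cell tunes most of their messages together. Many of these messages begin with a cytosine followed by a run of pyrimidines at the 5′ end, the TOP motif, through which mTORC1 signalling sets their translation. In the mouse heart, cardiomyocytes divide until shortly after birth and then grow in size. Each count below is of libraries from separate animals within a tissue, and a signal is a deposited normalized value on a linear scale.

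The bases around the annotated start of transcription are shown for some of the members, because the start is where the TOP motif lies. RefSeq start windows on GRCm38.p6 were found for 56 of the 76 genes. Each line holds the 15 bases before the start and the 15 from it onward, 5′ to 3′ on the gene's strand, and capitals mark the longest run of C and T.
Rps6: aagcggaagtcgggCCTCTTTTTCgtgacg
Rps27: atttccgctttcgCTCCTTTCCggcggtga
Rplp2: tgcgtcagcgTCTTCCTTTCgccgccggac
Rps26: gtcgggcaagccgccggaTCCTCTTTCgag
Rpl38: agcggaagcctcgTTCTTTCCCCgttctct
Rpl28: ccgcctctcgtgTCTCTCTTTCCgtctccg
Rps3: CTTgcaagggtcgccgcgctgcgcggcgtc
Rpl5: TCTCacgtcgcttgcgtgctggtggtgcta
Rplp0: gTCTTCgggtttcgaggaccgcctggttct
Rpsa: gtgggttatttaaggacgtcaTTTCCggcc
The windows lie at chr4:86857353-86857382 on the minus strand for Rps6, chr3:90213634-90213663 minus for Rps27, chr7:141447636-141447665 plus for Rplp2, chr10:128626492-128626521 minus for Rps26 and chr11:114668565-114668594 plus for Rpl38. Those of Rpl28, Rps3, Rpl5, Rplp0 and Rpsa lie at chr7:4792950-4792979 plus, chr7:99483695-99483724 minus, chr5:107900513-107900542 plus, chr5:115559452-115559481 plus and chr9:120127751-120127780 plus. In the first 6 genes the run held 9 to 11 pyrimidines, while the last 4 had runs of 3 to 5 in their windows.

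Across the 56 genes, 28 had a run of at least 8 C or T within 20 bases of an annotated start, against 19.4% of 10826 other tested protein-coding genes. A C at the annotated start itself followed by at least 4 C or T was found in 13 (23.2%), against 2.88%. CCGGAAG, the core recognised by ETS factors, was found on either strand in the 300-base window of 23 (41.1%), against 18.3%. The TATA box letters TATAAA, also searched on both strands, were found in 6 (10.7%), against 9.74%. The 2 pyrimidine searches overlap each other, and a match is a description of the letters only. The 76 genes are spread over 19 chromosomes, with 14 on chromosome 7, 7 on chromosome 11 and 4 on X (Rpl10, Rpl36a, Rpl39 and Rps4x).

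The libraries set limits on what follows. Each library was estimated to rest on 5138353 to 20669361 counts, and the median member on 975 to 5647. Creld1 itself read 34 to 92.2 in wild-type E13.5 hearts and 4.64 to 70.9 in knockout ones, the highest being the library labelled knockout replicate 1. In P3 atria the library labelled wild-type replicate 2 read 21.6, below all 3 knockout libraries (23.1 to 82.4), and in ventricles wild-type libraries read 59.7 to 130 against 19.9 to 59.3. Marker sums separated the chambers: 7 atrial markers summed to 81900 to 448000 in atria and to 3440 to 35000 in ventricles. The 5 ventricular markers summed to 64200 to 79000 in ventricles and to at most 15500 in atria, the highest being the library labelled wild-type replicate 2. In that library the ventricular marker Myl2 read 9240, against 21.7 to 97.2 in the other atrial libraries. The third atrial library of each genotype, both from 1 litter, stood apart from the other atrial libraries. Mitochondrially encoded transcripts took 10.4% of the signal in wild-type replicate 3 and 3.55% in knockout replicate 3, against 22.6% to 31.3% in the other 4. The atrial counts and medians are given with and without them; values of single genes are with them unless stated.

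Per kilobase of transcript, the members were among the most abundant messages. Their median was 3980 signal units per kb over the 20 libraries, against 36.9 for the other tested protein-coding genes. The highest were Rps25 at 12500 per kb, Rpl23a at 11600, Rps27 and Rpl41 at 10200 each and Rps28 at 8800. The lowest were Rpl12 at 163 per kb and Rpl5 at 442, and the highest member lay 76.6-fold above the lowest. Rpl12 binds the ribosome's GTPase centre, and Rpl5 carries the 5S ribosomal RNA with Rpl11. The members' transcripts are short, with a median of 731 nt (271 to 3706) against 2778 nt, and 60 of 76 were under 1000 nt against 8.64% of the other genes.

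Part of this spread lies in where reads were assigned. The table holds 207 rows named as "-ps" copies of 57 members, of which 9 are annotated protein coding. In 3 genes these copies held most of the joint signal: Rpl10, which completes the large subunit late in its maturation, left 88.1% of the joint signal to its copies (66.9% to 94.3% by library), Rpl27 78.0% and Rps12 72.4%. For 9 further members the copies held 12.5% to 48.6%. Summed with its copies, Rpl10 read 6800 ± 861 (SD, n = 4) in wild-type E13.5 hearts, where its own row read 913. The values of Rpl10, Rpl27 and Rps12 are uncertain as levels, since reads may have been split between near-identical copies. The same limit holds for other members whose copies took a share that varied by library. That share was 31.7% to 62.6% for Rps23, 0.0595% to 38.5% for Rps6, 0% to 37.2% for Rpl15 and 0% to 34.2% for Rps16. Summed with its copies, Rps23 read 6640 ± 1070 in wild-type E13.5 hearts (SD, n = 4) and 2660 ± 1540 in wild-type atria (SD, n = 3).

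The share of all signal that fell on the 76 genes was higher at E13.5 than at P3, and at P3 it was highest in knockout atria. It was 4.25%, 2.66%, 3.20% and 3.46% in the 4 wild-type E13.5 hearts and 2.82%, 2.97%, 3.06% and 2.98% in the 4 knockout hearts. In wild-type atria it was 1.53%, 1.68% and 1.42%, and in knockout atria 2.30%, 2.45% and 2.61%. In ventricles it was 1.42%, 1.42% and 1.62% in wild-type pups and 1.59%, 1.57% and 1.62% in knockout pups. All E13.5 libraries lay above all P3 libraries, the knockout atria lay above the wild-type atria without overlap, and the ventricles of both genotypes overlapped the wild-type atria. Mitochondrial transcripts are part of the total, and their share ran the other way in atria, at 31.3%, 31.3% and 10.4% in wild-type against 22.6%, 24.2% and 3.55% in knockout pups. Small-subunit genes held 0.75 to 0.846 of the signal of the large-subunit genes in every library, so neither subunit's share of the family changed much. In bulk tissue, fewer cells of a type and less RNA per cell cannot be told apart.

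**Figure D1:**
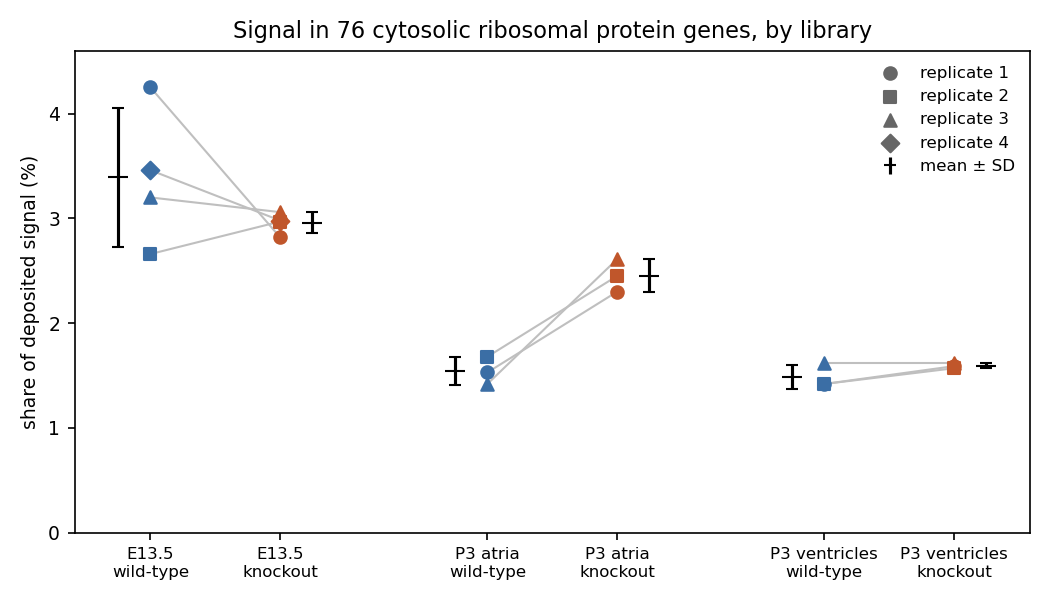
Share of the deposited signal (%) on the 76 genes in each of the 20 libraries; shapes mark replicate numbers, grey lines join same-numbered libraries and black bars give the mean ± SD of each group (4 libraries at E13.5, 3 at P3). Knockout atria sit at 2.30% to 2.61%, above the wild-type atria at 1.42% to 1.68%.

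In wild-type mice, ribosomal protein messages were lower in P3 atria and ventricles than in E13.5 whole hearts. The lower median was in atria on the deposited scale. Stage and dissection changed together, as did most preparation dates, so their parts in this stage difference cannot be told apart. From E13.5 hearts to P3 atria, 55 of the 76 genes fell (2.39% of all tested genes were called lower) and none rose (3.11% higher). All 76 differences were negative (46.0% of all tested genes), with a median log2 fold change of -1.18 against 0.09 for all genes tested. From E13.5 hearts to P3 ventricles, 2 fell (1.74% of all tested genes) and none rose (3.35%), 76 of 76 were negative (49.8%) and the median was -0.61 against 0. Both comparisons share the 4 wild-type E13.5 hearts. Where libraries were scaled to equal totals, the medians were -1.16 in atria (61 called) and -1.19 in ventricles (68 called), with 3.02% and 7.73% of all tested genes called lower. The groups did not overlap, with atria lower, in 68 members (6.74% of all tested genes), and with ventricles lower in 52 (8.41%). Cell markers differed between the same wild-type groups: 6 fibroblast markers summed to 15300 to 17500 at E13.5 and 46000 to 57000 in atria, 4 erythroid markers to 11400 to 43000 and 6770 to 7890, and 10 cardiomyocyte markers to 131000 to 156000 at E13.5 and 242000 to 292000 in ventricles. Single markers did not all follow these sums. Myh6 read 20600 to 30600 at E13.5 and 91700 to 110000 in ventricles, but Myh7 read 11900 to 20500 and 5160 to 10900. Ttn overlapped between these groups, at 35700 to 40000 and 37300 to 39200. The fibroblast marker Pdgfra overlapped between E13.5 hearts (302 to 516) and atria (300 to 493). The part of cell markers in the stage difference was not tested.

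Rps26, a small-subunit protein mutated in Diamond-Blackfan anaemia, read 4470, 2740, 4330 and 4550 in the wild-type E13.5 hearts and 1700, 1880 and 620 in the wild-type atria. The groups did not overlap, and the difference was -1.65 (SE 0.30, adjusted p 0.00237). Rpl32, whose level followed the median of the other members most closely (r = 0.99 over 20 libraries), read 7150, 5200, 5850 and 6230 at E13.5 and 2510, 3000 and 929 in atria. Its difference was -1.66 (SE 0.31, adjusted p 0.00276). The third atrial library was the lowest in both genes. Rps23, which lies at the decoding centre, read 4300, 3420, 4050 and 3380 at E13.5 and 1830, 2560 and 336 in atria, a difference of -1.69 (SE 0.49, adjusted p 0.0450). Rps27a, made as a fusion with ubiquitin, read 9160, 6960, 8350 and 7390 at E13.5 and 3880, 4530 and 966 in atria (-1.62, SE 0.41, adjusted p 0.0216). The other 4 members with the largest called falls were Rpl22 (-1.69), Rpl27a (-1.68), Rpl23a (-1.62) and Rpl37 (-1.57).

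The smallest fall in atria was that of Rplp0, the base of the stalk that recruits elongation factors to the ribosome. It read 3930, 2610, 3160 and 3460 in wild-type E13.5 hearts and 1890, 2110 and 3180 in wild-type atria (-0.48), and here the third atrial library was the highest. The other 2 stalk proteins moved further, with Rplp1 at -1.11 and Rplp2 at -1.55.

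Wild-type atrial replicate 3 bears on the size of this result. Without it, 19 members were called lower (1.34% of all tested genes) and the median was -0.79. Without the third atrial library of both genotypes the median was the same and 56 members were called (2.59%). Of the 19 called without wild-type atrial replicate 3, 18 were among the 55, which is 32.7% of the 55 and 94.7% of the 19. Rps26 and Rpl32 kept their calls when any single library was left out. The other 6 of the 8 genes above lost theirs without wild-type atrial replicate 3 (adjusted p 0.101 to 0.257, with Rps23 at -0.80). They kept their calls without the third pair (0.00498 to 0.0439, at the same fold changes). All 6 also lost their calls without E13.5 wild-type replicate 1. Without E13.5 wild-type replicate 1 or 3, 24 and 31 members were called (1.58% and 1.54%). Without the third pair of atrial libraries, the groups did not overlap in 71 members (11.5% of all tested genes). Other abundant protein-coding genes, 934 with a mean log2 level of at least 10.11, had a median of -0.34 in the same comparison. The E13.5 hearts of replicates 1 to 3 were prepared in 2016 and those of replicate 4 in 2018, like all P3 libraries. Against the 2018 heart alone the median was -1.17 and 0 members were called (a single library, taken to vary like the other groups), and against the 2016 hearts it was -1.20 with 24 called (1.52%).

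In ventricles, the 2 genes that fell were Rps27 and Rps3, both of the small subunit. Rps27, a zinc-finger protein encoded at chr3:90212522-90213651, read 5460, 4830, 4640 and 5570 in wild-type E13.5 hearts and 3180, 2510 and 1740 in wild-type ventricles. The groups did not overlap, and the difference was -1.09 (SE 0.25, adjusted p 0.0115). Rps3, which lines the entry of the mRNA channel and is encoded at chr7:99477896-99483738, read 5380, 4910, 5400 and 5480 at E13.5 and 3230, 3210 and 2770 in ventricles (-0.79, SE 0.22, adjusted p 0.0378). Its call was lost when any single one of the 7 libraries was left out (adjusted p 0.0539 to 0.159), and that of Rps27 without ventricular wild-type replicate 3 (-0.85, adjusted p 0.104), which left 0 members called. Rps28 (-0.84, adjusted p 0.0525), Rpl10 (-1.14, 0.0627) and Rpl5 (-1.04, 0.0718) missed the threshold. At an unadjusted p under 0.05, 39 members were lower and none higher (7.53% of all tested genes lower, 9.84% higher).

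The scale on which ventricles are read decides how many members pass. Mitochondrial transcripts took 38.5% to 41.3% of the signal in wild-type ventricles and 20.4% to 22.0% in wild-type E13.5 hearts. Where libraries were scaled to equal totals, the median of all tested genes moved to -0.54, that of the members to -1.19, and 68 members were called lower (7.73% of all tested genes, against 1.74% on the deposited scale). On both scales the members' median lay below that of all genes.

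In knockout hearts the stage difference had the same sign but no member passed the test on the deposited scale. From knockout E13.5 hearts to knockout ventricles, all 76 differences were negative (50.9% of all tested genes) with a median of -0.40, 0 were called (0.954% called lower, 1.79% higher), and 9 were lower at an unadjusted p under 0.05 (6.30%). Ventricles lay below the hearts without overlap in 43 members (7.84%). Under equal totals 47 were called lower (4.84% of all tested genes) and the median was -0.90. Rps3 read 5800, 4230, 5510 and 4200 in knockout hearts and 3280, 3000 and 3380 in knockout ventricles (-0.60, SE 0.22, adjusted p 0.164). Rps27 differed by -0.64 (0.204) and Rps26 by -0.72 (0.244). From knockout E13.5 hearts to knockout atria, 69 were negative (48.0% of all tested genes) and 7 positive, the median was -0.35, and again 0 were called (0.855% lower, 1.95% higher), with 3 lower at an unadjusted p under 0.05 (6.14%). Atria lay below the hearts without overlap in 13 members (6.27%), and without knockout atrial replicate 3, or without the third pair, the median was -0.16. Rpl5 was lowest at -0.93 (SE 0.33, adjusted p 0.146), and Rplp0 highest at 0.27 (0.733). Whether the stage difference itself depended on genotype was tested as an interaction: the members' median was 0.85 for atria (0.46 without wild-type atrial replicate 3) and 0.19 for ventricles, and limma called 0 members in either (0.00552% of all tested genes called higher for atria, 0% otherwise). For atria, 34 members had a higher interaction at an unadjusted p under 0.05 (2.49% of all tested genes), and 39 without the third pair (3.85%), where the median was 0.61; for ventricles none did in either direction (1.80% higher, 2.22% lower).

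**Figure D2:**
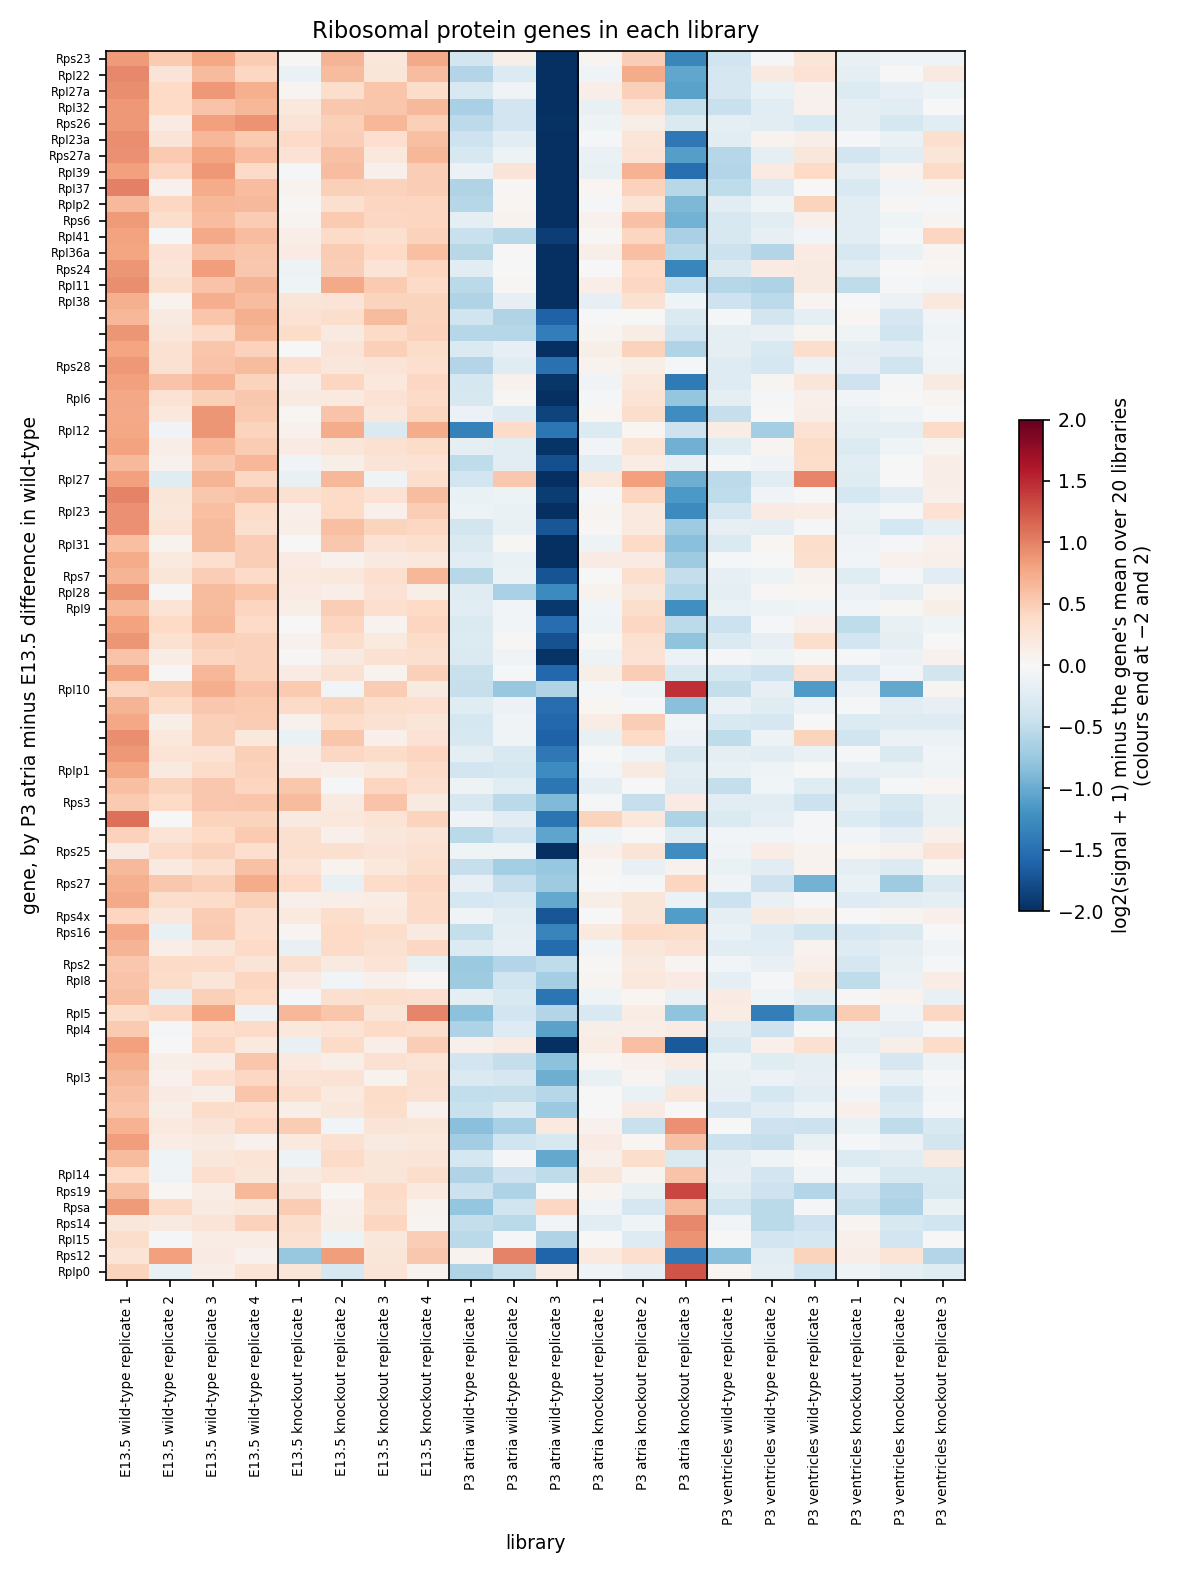
Each of the 76 genes (rows) in each of the 20 libraries (columns; names are given for members discussed in the text), as log2(signal + 1) minus the gene's mean over all libraries; rows are ordered by the wild-type difference from E13.5 to P3 atria, and colours end at -2 and 2. Wild-type E13.5 hearts are high for nearly every gene, and wild-type atrial replicate 3 holds the lowest value of its group in 65 genes.

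In P3 atria, ribosomal protein messages were on average higher in knockout than in wild-type pups, although no single gene passed the test. By library, the members' median level (log2) overlapped between the genotypes. Knockout replicates 1 to 3 stood at 11.3, 11.44 and 11.08. The wild-type replicates, in the same order, had medians of 10.86, 11.11 and 9.9, so knockout replicate 3 lay below wild-type replicate 2. Members moved together over the 20 libraries (median r 0.92), so the counts of members below are not counts of independent genes. Of the 76 genes, 75 had a positive difference (49.8% of all tested genes did), and the median log2 fold change was 0.64 against 0. None was called (0.0221% of all tested genes were called higher, 0.00552% lower), 37 were higher at an unadjusted p under 0.05 (2.95%), and 23 had knockout libraries all above wild-type libraries (3.92%). The exception was Rps12 at -0.12, one of the 3 genes that share most of their signal with copies. Summed with its copies, Rps12 read 1300 ± 871 in wild-type and 1680 ± 874 in knockout atria (SD, n = 3 each), so its own row alone goes the other way. In the 3 same-numbered pairs, 74, 73 and 75 members were higher in the knockout library, with medians of 0.42, 0.43 and 1.09. The 934 other abundant genes had a median of 0.09.

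Rpl14 of the large subunit, encoded at chr9:120571444-120574654, read 799, 910 and 857 in wild-type atria and 1420, 1260 and 1810 in knockout atria. The groups did not overlap (0.79, SE 0.22, adjusted p 0.443). Rps16, which contacts the tRNA in the peptidyl site, read 1070, 1310 and 601 against 1720, 1960 and 1930 (0.98, SE 0.28, adjusted p 0.468). Rpl8, which lies close to the peptidyl transferase centre, read 1100, 1360 and 1120 against 1860, 2070 and 2010 (0.74, SE 0.22, adjusted p 0.558). Rps2, at the mRNA entry channel, read 1490, 1660 and 1750 against 2520, 2810 and 2570 (0.69, SE 0.21, adjusted p 0.572). Rpl4, which lines the exit tunnel, read 3890, 4980 and 2830 against 6440, 6500 and 6680 (0.78, SE 0.24, adjusted p 0.572). In each of the 5 genes the lowest knockout library exceeded the highest wild-type library.

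Members of known disease or regulatory roles had values in the same range. Rps19, the gene most often mutated in Diamond-Blackfan anaemia, read 1400, 1230 and 1870 in wild-type against 1960, 1700 and 4740 in knockout atria (0.76). Rps6, the substrate of S6 kinase, read 5940, 7150 and 1070 against 7260, 10200 and 3530 (0.84). The groups overlapped in both genes, and in Rps6 the third library was the lowest of each genotype while in Rps19 it was the highest. Rpl11, which with Rpl5 can bind the p53 inhibitor Mdm2, differed by 0.86, and Rpl5 by 0.27. The 4 X-linked members differed by 1.05 (Rpl10), 0.99 (Rpl36a), 0.66 (Rpl39) and 0.37 (Rps4x). Joined with its copies, Rpl10 read 4290 ± 1270 in wild-type and 6520 ± 1200 in knockout atria (SD, n = 3 each).

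The atrial difference was smaller without the third libraries. Without wild-type replicate 3 the median was 0.28, without knockout replicate 3 it was 0.86, and without both it was 0.41. In the last case 28 members were higher at an unadjusted p under 0.05 (4.12%), and the groups did not overlap, with knockout higher, in 54 members (18.9% of all tested genes). Without the library labelled wild-type replicate 2 the median was 0.84. With the replicate number as a block the median was 0.64 and 0 members were called, and Rpl14 had an adjusted p of 0.137. Other cell markers differed between the same groups: 4 erythroid markers summed to 6770 to 7890 in wild-type and 13100 to 53700 in knockout atria, 6 fibroblast markers to 46000 to 57000 and 36700 to 40700, 10 cardiomyocyte markers to 117000 to 183000 and 184000 to 197000, 5 endothelial markers to 3130 to 3190 and 2430 to 3000, and 4 smooth muscle markers, which overlapped, to 1470 to 5510 and 5100 to 10200. Not every marker followed the sum of its list. In the endothelial list Tek read 1800, 1440 and 1000 in wild-type against 969, 880 and 613 in knockout atria, but Pecam1 read 525, 608 and 745 against 604, 644 and 855. In the fibroblast list Dcn read 4540, 5010 and 5770 against 1480, 1880 and 2290, but Tcf21 read 133, 214 and 306 against 162, 255 and 513. The part of these markers in the difference was not tested.

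**Figure D3:**
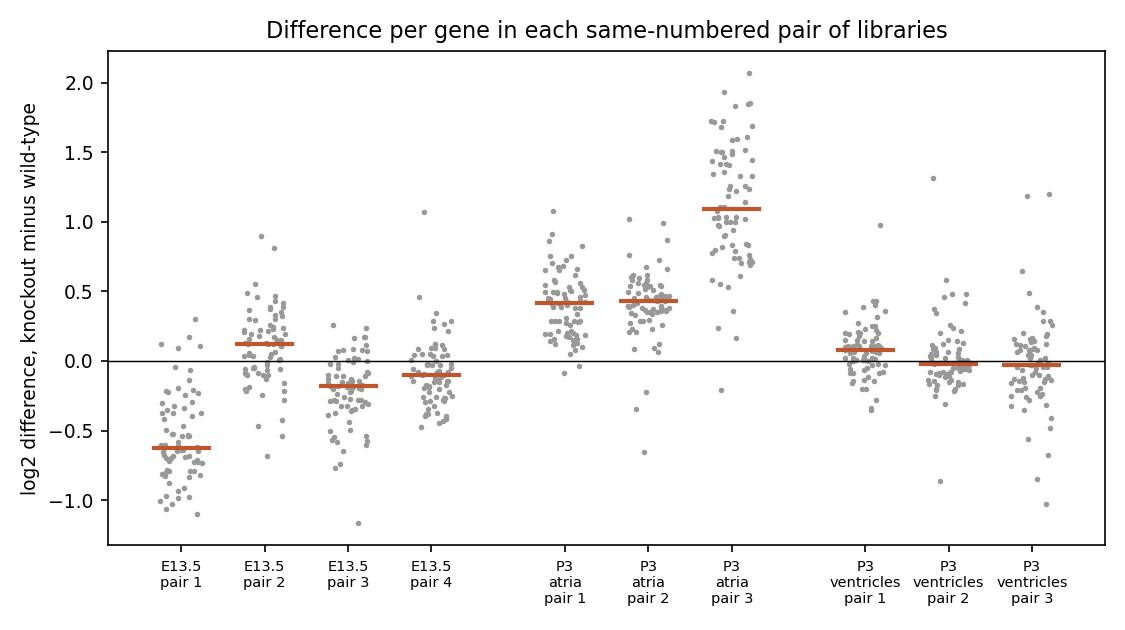
Log2 difference, knockout minus wild-type, for each of the 76 genes (grey points, spread sideways at random) in each same-numbered pair of libraries, with the median as a line. The medians are 0.42, 0.43 and 1.09 in the 3 atrial pairs, from -0.03 to 0.08 in ventricles and from -0.63 to 0.12 at E13.5.

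In P3 ventricles, the same genes did not separate the genotypes. Of the 76, 42 differences were positive and 34 negative (48.5% and 50.9% of all tested genes), the median was 0.01 against -0.01 for all genes, and the range was -0.16 to 0.96. None was called (0% of all tested genes in either direction), and 1 was higher at an unadjusted p under 0.05 (1.99%). That gene was Rpl5, which read 925, 318 and 482 in wild-type against 1180, 792 and 1110 in knockout ventricles. The groups overlapped, since wild-type replicate 1 exceeded knockout replicate 2, and the difference was 0.96 (SE 0.35, adjusted p 1). Rpl9 was the only member whose knockout ventricles all lay above the wild-type ones (4.97% of all tested genes), at 3800, 3990 and 4270 against 3610, 3660 and 3770 (0.13, SE 0.39, adjusted p 1). Rpl38, which a mouse mutant ties to the patterning of the axial skeleton, differed by 0.34 (SE 0.34), and Rpl8 by -0.15 and Rps2 by -0.14. Under equal totals the median was 0.10.

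At E13.5 the members were slightly lower in knockout hearts, within the spread of the wild-type hearts. Of the 76, 73 differences were negative (48.6% of all tested genes), the median was -0.19 against 0.01, and none was called (0%) or had an unadjusted p under 0.05 (2.39% higher, 1.73% lower). Knockout hearts lay below wild-type hearts without overlap in 3 members (1.25%). Rpl8 read 2650, 2310, 2130 and 2410 in wild-type against 2010, 1720, 1930 and 1850 in knockout hearts (-0.34, SE 0.19, adjusted p 1). Rps27 read 5460, 4830, 4640 and 5570 against 4420, 3010, 4330 and 4440 (-0.35, SE 0.23). Both genes had their 4 knockout hearts below the 4 wild-type hearts. Rpl5 was the highest, at 0.24 (SE 0.30), with 1070, 1120, 1430 and 774 against 1320, 1220, 982 and 1630. Wild-type hearts differed among themselves: replicate 1 was the highest of its group in 57 of 76 members and replicate 2 the lowest in 61. By pair the medians were -0.63, 0.12, -0.18 and -0.10. The lowest came from the pair of replicate 1. The median was -0.15 without the library labelled knockout replicate 1 and -0.11 without wild-type replicate 1.

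Between the chambers of the same pup, the difference varied from pup to pup, with the third pup of each genotype apart. In wild-type pups the median ventricle minus atrium difference was 0.62, made up of 0.12, 0.02 and 1.68 in pups 1 to 3, and 0.10 without pup 3. The members' median level was 11.10, 11.26 and 11.33 in the ventricles of these pups and 10.86, 11.11 and 9.90 in their atria (log2), so the spread lay mainly in the atria. None was called or had an unadjusted p under 0.05 (0% of all tested genes called higher and 0.0883% lower, 4.24% and 5.63% at that p), and 26 were higher in ventricles in all 3 pups (13.7%). In knockout pups the median was -0.05, from -0.19, -0.40 and 0.39. None was called (0.0772% higher, 0.121% lower), 1 was lower at an unadjusted p under 0.05 (5.16%), and 21 were lower in ventricles in all 3 pups (16.6%). That gene was Rps19 (-0.84, SE 0.35, adjusted p 0.521). The genotype effect on this chamber difference had a median of -0.67 with 0 members called or at an unadjusted p under 0.05 (0% called, 1.48% higher and 1.10% lower). Under equal totals the chamber medians were 0.02 in wild-type and -0.61 in knockout pups, where those of all genes were -0.62 and -0.60. The median of the genotype effect was -0.17 without wild-type pup 3 and -0.94 without knockout pup 3.

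The third atrial libraries changed the balance among the members, in both genotypes alike. Against the mean of replicates 1 and 2, wild-type replicate 3 was lower in 66 members, with a median of -1.35, and knockout replicate 3 in 58, with a median of -0.53. The 2 shifts correlated at r = 0.87 over the 76 genes, which share both libraries and their litter. Rpl39, at the exit tunnel, shifted furthest down (-3.15 in wild-type, -1.77 in knockout), followed by Rpl27 (-2.90 and -1.49), Rps23 (-2.69 and -1.58) and Rps6 (-2.60 and -1.29). Among those of opposite sign were Rpsa (0.99 and 0.85), Rplp0 (0.67 and 1.38), Rps19 (0.51 and 1.37) and Rps14 (0.45 and 1.11). Across the members, the shift correlated with the GC content of the transcript at 0.44 in wild-type and 0.48 in knockout, and among the 934 other abundant genes, whose median shifts were -1.13 and -0.76, at 0.38 and 0.44.

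**Figure D4:**
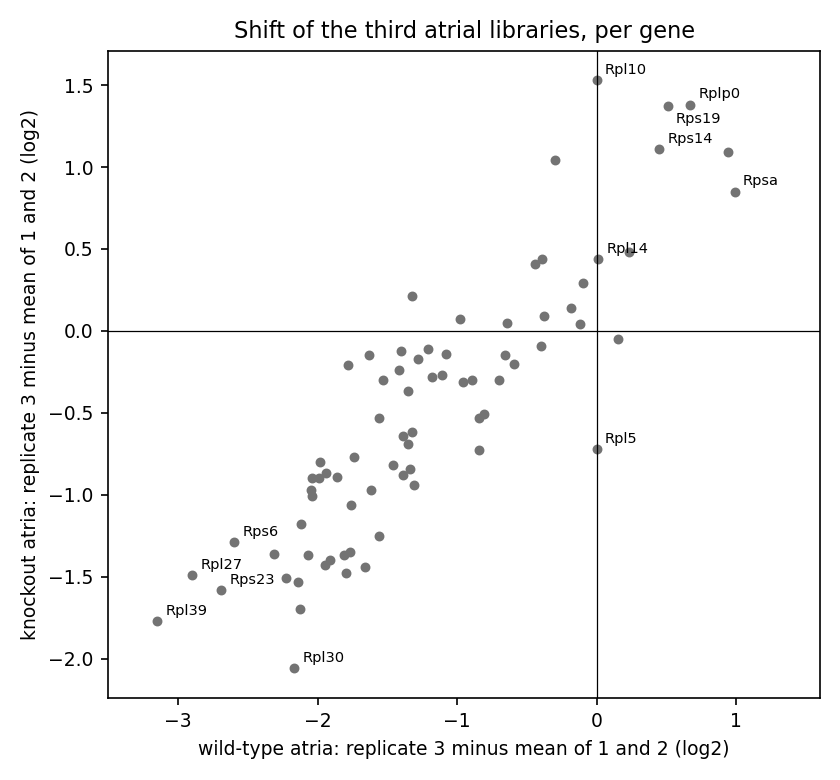
Shift of atrial replicate 3 from the mean of replicates 1 and 2 in wild-type (horizontal, log2) and knockout atria (vertical, log2), 1 point for each of the 76 genes. Most genes lie low on both axes, with Rpl39 at -3.15 and -1.77, while Rpsa, Rplp0, Rps19 and Rps14 lie above 0 on both.

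Most members followed the family closely. The correlation of each member with the median of the others over the 20 libraries, which share depth and scaling, had a median of 0.92, with 0.99 for Rpl32, 0.98 for Rplp1 and 0.97 for Rpl37, Rps26 and Rps7. Among 937 other protein-coding genes of similar level, each set against the median of the rest, the median was 0.67. Among the lowest were Rplp0 (0.12), Rpsa (0.27), Rps19 (0.29) and Rps14 (0.30), which were high in the third atrial libraries, and Rpl10 (0.44), Rpl15 (0.49) and Rpl5 (0.53). Over the 18 libraries without the third atrial pair, the medians were 0.88 for the members and 0.27 for the other genes. Rpsa (0.85), Rps19 (0.82), Rps14 (0.73) and Rplp0 (0.72) then lay closer to the family, while Rpl5 stayed at 0.52 and Rps12 was the lowest at 0.25. After the median of the members was taken from each library, the SD of a member over the 20 libraries had a median of 0.27 on the log2 scale, against 0.53 before. With members centred in this way, Rpl32 was the only member called in any comparison, at -0.49 (SE 0.19, adjusted p 0.0497) from wild-type E13.5 hearts to atria. In that comparison centring also moved the other genes up, and 31.9% of all tested genes were called higher and 0.359% lower. So large a share of calls loosens the adjusted threshold, and Rpl32 lay just under it. Rpl5 in ventricles stood at 1.01 (adjusted p 1). Rpl23a, Rpl32 and Rps23 were the 3 members with the largest SD between the 6 group means. Over all genes tested, Rpl23a was most like Rpl23 (r = 0.99), with Rpl9, Rps4x and Rps3a1 next (0.98 each). Rpl32 was most like Ppia (0.98), then Rplp1, Rps7, Snrpf and Rpl37 (0.97 each), and Rps23 was most like Rps3a1 (0.99), then Rps6, Rps24, Rpl31 and Rpl6 (0.98 each).

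From wild-type E13.5 hearts to atria, other lists of translation genes had medians closer to 0 than the members. In that comparison 2 of 8 elongation factor genes fell, Eef1b2 (-1.39) and Eef1g (-0.89), and their median was -0.67. Of 49 ribosome biogenesis genes 8 fell, among them the nucleolar proteins Fbl (-1.75), Npm1 (-1.74) and Ncl (-1.29), with a median of -0.59. The medians of the 34 initiation factors (0 called) and of the 14 genes of RNA polymerase I and its factors (1 fell) were -0.33 and -0.42, and that of the 22 mTORC1 components was 0.08 with 0 called. Of 3 ribosome components outside the name rule, Fau (-0.89) and Rack1 (-0.98) fell. The 78 mitochondrial ribosomal protein genes had a median of -0.35 with 2 fallen. In the same comparison 2.39% of all tested genes fell, and the 934 other abundant genes had a median of -0.34, close to those of the initiation factors and the mitochondrial ribosome. Without the third atrial pair, 3 elongation factors, 5 biogenesis genes and none of the 3 further components were called, with medians of -0.50, -0.51 and -0.66. In wild-type ventricles the median of the mitochondrial ribosomal protein genes was 0.20 with 0 called. From wild-type hearts to ventricles, 3 biogenesis genes, 2 of polymerase I and 1 elongation factor gene fell (1.74% of all tested genes). There 58 of the 78 mitochondrial ribosomal protein genes were positive, whereas under equal totals 67 were negative and their median was -0.38.

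Among paralogs outside the rule, Rpl3l, a form of Rpl3 made in heart and skeletal muscle, rose from wild-type E13.5 hearts to ventricles. It read 25.4, 0, 0 and 0 at E13.5 and 66.5, 91.7 and 33.0 in ventricles (4.72, SE 1.22, adjusted p 0.0259). With values of 0 at E13.5, the size of this difference depends on the 1 added before logs were taken. In knockout ventricles it read 10.7, 17.8 and 26.4, all below the wild-type ones (-1.71, SE 1.31, adjusted p 1). Rpl3 itself read 8230, 5530, 6620 and 6990 in wild-type hearts and 4720, 4830 and 4660 in wild-type ventricles (-0.52). In the atrial genotype comparison, no gene of these lists was called, and the medians were 0.70 for 7 paralogs (0.16 without the third pair), 0.24 for elongation factors, 0.35 for initiation factors (31 of 34 positive), 0.44 for biogenesis (41 of 49), 0.52 for polymerase I (13 of 14), 0.22 for mitochondrial ribosomal proteins (57 of 78) and -0.03 for mTORC1 components (10 of 22). In ventricles 55 of the 78 mitochondrial ribosomal protein genes were negative, with a median of -0.11.

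**Figure D5:**
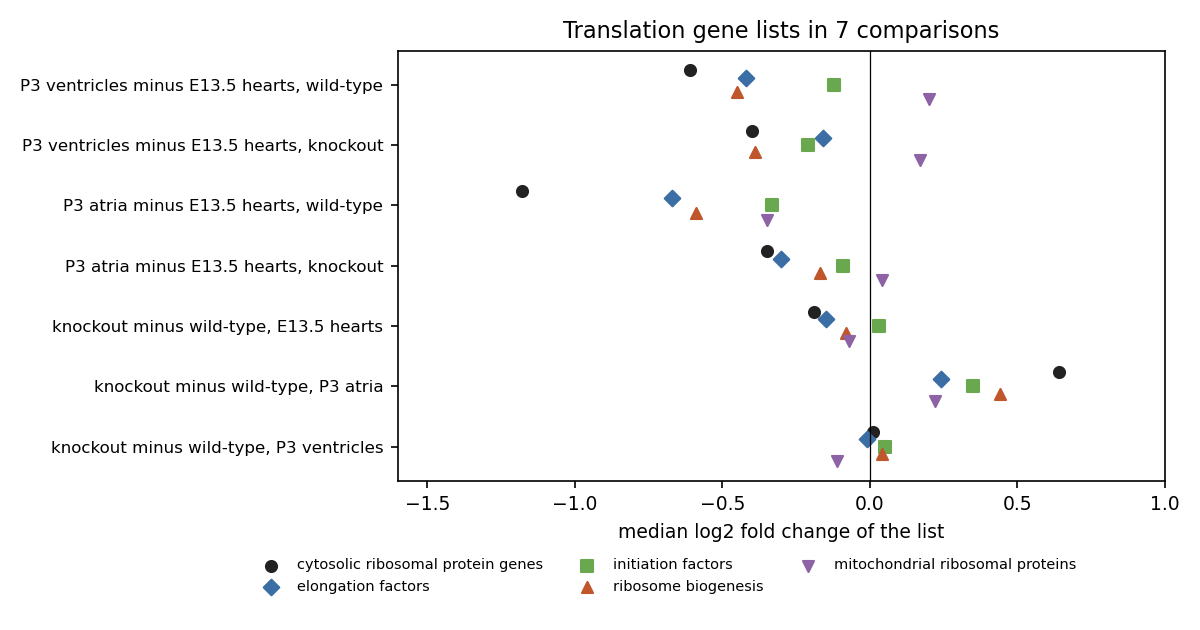
Median log2 fold change of the 76 members and of 4 other lists (8 elongation factors, 34 initiation factors, 49 biogenesis genes and 78 mitochondrial ribosomal proteins) in 7 comparisons. The members have the lowest median from wild-type E13.5 hearts to atria, at -1.18, and, of these 5 lists, the highest in the atrial genotype comparison, at 0.64.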

How the data were processed

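The values analysed are signal on a linear scale, deposited by the authors as normalized values per gene for 20 libraries. Reads were demultiplexed with bcl2fastq 2.2, aligned with STAR 2.5.1 to mm10 and processed with DESeq2, per the submitters' processing notes. The sources used here do not give the scaling or the counting tool. Steps between the lowest values gave whole reads for 45.1% to 64.6% of values (within 0.001 reads, estimated counts up to 100), too few for a count test. Estimated totals of 5138353 to 20669361 counts per library are therefore approximate.

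Values were taken as log2(value + 1), so that changes of low genes are in general understated. Where a group holds values of 0, the size of the change depends on the added 1. Genes with at least 10 in at least 3 libraries were tested with limma 3.58.1 in R 4.3.3, in 1 fit of 6 group means with a mean-variance trend. Ventricle minus atrium differences were fitted within pups. P-values are two-sided, Benjamini-Hochberg adjusted over all 18125 genes, and called under 0.05. "Without overlap" means that every library of 1 group lies above every library of the other (within pups, 1 direction in all 3). The tests were checked on simulated data.

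Named in each comparison were up to 8 called members of largest change per direction, or, with fewer than 3 called, the 5 of smallest p, plus members at the extremes of level and of known role; of these, the ones that carry a result are described, and Rpl9, Rpl15 and the members named for their shift in the third atrial libraries were chosen after their values were seen. Members and lists were chosen with earlier results of these data known. Levels per kb used the GENCODE M21 transcript with the longest coding sequence, and start sites came from RefSeq on GRCm38.p6.

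Same-numbered libraries share a litter and preparation date by the labels. Their deviations from the group means correlated at 0.212, 0.255 and 0.638 in atria, 0.0200 to 0.0658 in ventricles and -0.0159 to 0.0159 at E13.5. Alternatives were the pseudocount, filter, scaling, fit, replicate block, preparation year, Xist as a covariate, centring on the members and leaving out libraries; leaving out the third atrial pair was chosen after seeing the data. Results on some members are not reported here.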

Additional observations from a re-analysis of the deposited data

Results flagged for a closer look

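Among 102 groups of 4 E13.5 hearts checked over 51 members, 7 had a single heart far from the other 3, beyond Dixon's 95% critical value. Chance flags about 1 group in 20. In wild-type hearts these were Rpl18 in replicate 1 at 1290, and Rplp2 at 3410 and Rps26 at 2740 in replicate 2, the library lowest in 61 of the 76 members. In knockout hearts they were Rps27 in replicate 2 at 3010, Rpl3 in replicate 3 at 5480, Rps18 in replicate 4 at 4840, and Rpl37 at 1900 in the library labelled knockout replicate 1.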

How the results depend on the processing

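No called value changed direction, while 37 values of single uncalled members did, as did medians near 0 when 1 library or pup was left out: ventricular genotypes gave -0.07 to 0.07 and knockout chambers -0.30 to 0.13. The replicate block called 0 members in the 3 genotype comparisons, as without it, and changed no call. With libraries scaled to equal totals, the members' median from wild-type hearts to ventricles was -1.19 with 68 called. For all genes it was -0.54, with 7.73% called lower. From knockout hearts to ventricles it was -0.90 with 47 called (all genes -0.49, with 4.84% called lower). Under the same scaling the ventricular genotype median was 0.10. The ventricle minus atrium medians were then 0.02 in wild-type (all genes -0.62) and -0.61 in knockout pups (all genes -0.60). From wild-type hearts to ventricles 1 member was called under TMM, without wild-type pup 2 or with 2016 hearts only, and 0 with 2018 hearts only or with members centred, which leaves departures from the family. From wild-type hearts to atria 24 were called with 2016 hearts only (1.52% of all tested genes called lower). With members centred 1 was called, where 0.359% of all tested genes were called lower and 31.9% higher. From knockout hearts to ventricles the median was -0.50 with the 2018 heart. Without the third atrial pair, 1 member was called lower from knockout hearts to atria (0.971% of all tested genes), with a median of -0.16. With Xist as a covariate, the genotype effect on the chamber difference was -1.03. Leaving out 1 library or pup at a time gave 19 to 62 calls from wild-type hearts to atria (1.34% and 3.05% of all tested genes called lower). Without E13.5 wild-type replicate 1 there were 24 (1.58%), and without replicate 3 there were 31 (1.54%). To ventricles there were 0 to 3 calls (0.927% and 1.58%). The median was -0.52 to -0.16 from knockout hearts to atria and 0.10 to 0.85 for wild-type chambers. That of the genotype effect was 0.46 to 1.07 for the atrial stage difference and -0.94 to -0.17 for the chamber difference. Beyond these constructions the cause was not tested. Of the values of single members under alternatives, 914 kept their side of the threshold and their direction, 54 lost a call and 11 gained one. Estimated counts per member (lowest 62 to 419 per library) limit Rpl12 and Rps12 most.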
